A study of Mus musculus with 391 samples.

Results

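The Rab genes were taken as every gene of the deposited count table whose symbol is Rab followed by a number, with or without a closing letter and digit, which gave 59 genes of 56941. The cells were single cells that adult mouse brain released from its vascular fragments, placed 1 to a well and sequenced as full-length transcripts by Smart-seq2. The labels name a microglia class of 280 cells and an endothelial class of 111 cells, which carry the codes MG and CP-EC in a deposited cell table. They give no strain, sex, genotype, treatment or number of animals and do not say which animal a cell came from. Each class is therefore 1 sample, and no test between classes was made. The comparison asked which Rab genes, and which member of each paralog family, the cells of the 2 classes expressed.

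Rab proteins are small GTPases that mark membranes and steer vesicles between them. An exchange factor loads a Rab with GTP, the loaded Rab recruits effectors such as tethers and motors to its membrane, a GTPase-activating protein ends the cycle, and a dissociation inhibitor carries the inactive prenylated Rab through the cytosol. Microglia, the resident macrophages of the brain, take up and degrade debris through phagosomes and lysosomes, and endothelial cells, which line blood vessels, move cargo across and recycle junction and receptor proteins at their surface.

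Levels are given in CPM: for each class, a gene's reads in all its cells relative to all gene reads of those cells, on a scale of 1e+06. The microglia class held 47508014 gene reads and the endothelial class 21361227, with a median of 146506 and 174345 per cell. Parentheses after a level or a ratio give an exact 95% interval, and those after a share of cells a 95% Clopper-Pearson interval. Without molecular identifiers, these intervals, like the floors, hold counting error alone, and intervals of shares treat cells as independent. The column names distinguish 4 plates, A to D here. Microglia-class cells came from plates A (133 cells) and B (147), and endothelial cells from plates A (7), B (10), C (50) and D (44). The endothelial marker list of 12 genes summed to 33065 CPM in endothelial cells (31953 to 34386 by plate) and 298 in the microglia class (246 to 327). A list of 8 genes of fenestrated endothelium, which shares Plvap with it, summed to 25796 CPM in endothelial cells (22967 to 26400). In the microglia class that list was at 577 CPM (549 to 592). The microglia list of 18 genes summed to 30080 CPM in the microglia class (27469 to 34865) and 1025 in endothelial cells (886 to 1416), with no member at 0 in either class. The microglia class was not uniform. Its cells fell into 3 clusters made without the Rab genes: cluster 1 (136 cells) was border-associated-macrophage-like, with 9 of 12 markers detected in 50% of cells or more. Clusters 2 and 3 had 8 and 6 of these markers so detected, and levels set the clusters further apart. The list summed to 15318 CPM in cluster 1, against 5228 and 487 in clusters 2 and 3. Cluster 2 (94 cells) was left unnamed and was led by Vim, Ccr2 and S100a6, with the antigen-presenting list at 24565 CPM against 5518 and 1055 in clusters 1 and 3. Cluster 3 (50 cells) was microglia-like, with 18 of 18 markers, against 15 in cluster 1 and 15 in cluster 2. The microglia list summed to 52856 CPM in cluster 3, against 27676 and 19982 in clusters 1 and 2.

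The summed level of the Rab genes was of the same order in both classes and somewhat higher in endothelial cells, and single members differed far more than the sum. All 59 genes together stood at 3661 CPM (3644 to 3678) over the microglia class, against 4221 CPM (4193 to 4249) over endothelial cells. The sum was 3729 and 3624 CPM on microglia-class plates A and B, and 4090, 4435, 4048 and 4371 CPM on endothelial plates A to D. The plates of the classes did not overlap in this sum. A microglia-class cell had reads of a median of 11 Rab genes and an endothelial cell of 12, or 10 and 11 with every cell cut to 80000 random reads (53 and 0 cells were too shallow for this).

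Of the 59 genes, 46 passed a filter of a mean of at least 1 CPM over the classes. The ratio of the classes was taken as log2 of CPM plus 1, microglia class over endothelial class, and a gene was called at 2-fold or more. On the microglia side 13 of 46 (28.3%) were at least 2-fold apart, beside 35.2% of the 13958 genes of the table that passed the same filter. On the endothelial side 9 of 46 (19.6%) were, beside 22.5% of all genes, and 24 lay between. With this filter the shares of called members lay near those of all genes and somewhat below them. The order depended on the filter. With no filter beyond 1 read, 13 and 9 of 54 members were called, above the 21.6% and 12.8% of all genes. The median log2 ratio of the members was 0.23, beside 0.27 for all genes, and 0.24 with the 3 members at 0 reads in endothelial cells (Rab19, Rab38 and Rab39) set at a floor of 3 reads over the class. Just past the threshold lay Rab35 with a log2 ratio of 1.01 and Rab5c with -1.02, and just inside it Rab31 with 0.97 and Rab1b with -0.89. With 1 plate left out in turn, the median ran from 0.04 to 0.40, the calls in the microglia class from 12 to 15 and those in endothelial cells from 7 to 11. Within plates A and B, with 7 and 10 endothelial cells, the genes as a whole lay further to the microglia side, with medians of 2.14 and 2.16 and 60.7% and 61.0% of genes called there. The members had medians of 2.76 and 0.76 there, with 24 of 43 and 22 of 44 called on the microglia side and 11 and 8 on the endothelial side. At 4-fold the pooled counts were 6 and 2 members, beside 21.4% and 12.6% of all genes. The plate levels of the classes did not overlap for 11 members higher in the microglia class, beside 28.8% of all genes, and for 7 higher in endothelial cells, beside 8.02%. The 11 were Rab7b, Rab8b, Rab14, Rab19, Rab20, Rab32, Rab34, Rab38, Rab39, Rab40b and Rab43, and the 7 were Rab1b, Rab3d, Rab7, Rab11a, Rab11b, Rab13 and Rab28. Without the 3 microglia-class and 4 endothelial cells whose reads of the opposite class's markers exceeded 10% of those of their own, the calls numbered 13 and 9.

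**Figure D1:**
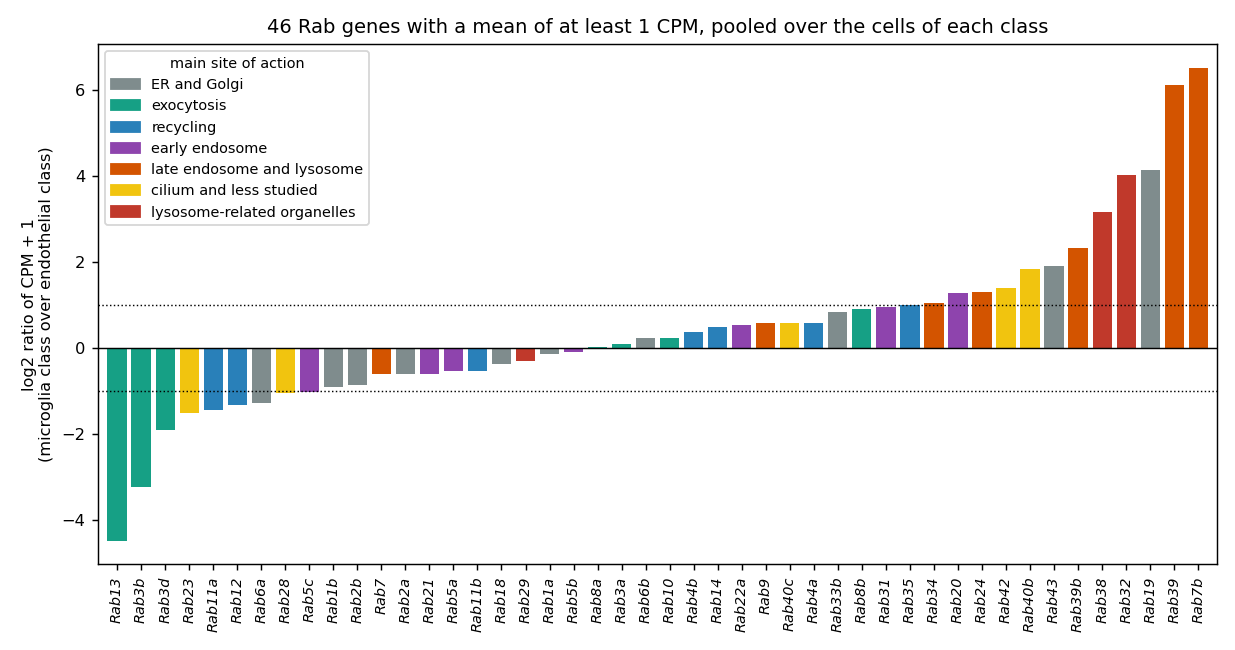
Log2 ratio of CPM plus 1, microglia class over endothelial class, for the 46 Rab genes that passed the filter, coloured by the main site of action of each protein; dotted lines mark 2-fold. Rab7b, Rab39, Rab19 and Rab32 stand highest on the microglia side (6.51, 6.10, 4.14 and 4.03), and Rab13 and Rab3b lowest on the endothelial side (-4.47 and -3.21).

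The 4 promoters shown here belong to Rab32 and Rab39, high in the microglia class, and to Rab11a and Rab3d, high in endothelial cells. They are the 250 bases before the RefSeq start site, 5′ to 3′, in build GRCm38.p6, on the gene's strand. Capitals mark matches to the motifs searched on both strands: GAGGAAGT for PU.1, CCGGAAGT for ETS factors, GGGCGG as GC box, CACGTG as E-box and TATAAA as TATA box. The AP-1 site, TGA and TCA with 1 base between them, and the interferon response element, a pair of GAAA runs with 2 bases between them, were also searched. No matches overlap in these 4 sequences. The regions are chr10:10558208-10558457, minus strand for Rab32, chr9:53706233-53706482, minus strand for Rab39, chr9:64737757-64738006, minus strand for Rab11a and chr9:21918184-21918433, minus strand for Rab3d.
Rab32: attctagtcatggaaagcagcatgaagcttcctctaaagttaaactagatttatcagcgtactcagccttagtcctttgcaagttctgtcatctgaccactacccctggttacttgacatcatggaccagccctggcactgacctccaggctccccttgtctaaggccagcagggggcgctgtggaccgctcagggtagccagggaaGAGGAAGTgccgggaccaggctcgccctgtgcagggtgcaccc
Rab39: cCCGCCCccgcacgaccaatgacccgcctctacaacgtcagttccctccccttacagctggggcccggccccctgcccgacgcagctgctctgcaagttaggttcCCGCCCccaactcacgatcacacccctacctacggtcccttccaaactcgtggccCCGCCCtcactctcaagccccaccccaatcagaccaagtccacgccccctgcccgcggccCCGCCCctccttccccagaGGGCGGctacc
Rab11a: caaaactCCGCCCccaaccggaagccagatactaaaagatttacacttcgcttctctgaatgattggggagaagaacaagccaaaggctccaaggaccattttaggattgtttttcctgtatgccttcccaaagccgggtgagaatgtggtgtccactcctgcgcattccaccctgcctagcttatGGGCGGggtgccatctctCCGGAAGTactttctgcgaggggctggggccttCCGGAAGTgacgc
Rab3d: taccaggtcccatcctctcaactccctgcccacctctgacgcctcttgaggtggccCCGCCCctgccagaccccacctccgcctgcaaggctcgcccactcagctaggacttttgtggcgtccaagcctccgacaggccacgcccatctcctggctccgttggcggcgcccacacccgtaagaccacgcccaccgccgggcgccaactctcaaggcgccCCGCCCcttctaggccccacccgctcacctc

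The Rab32 promoter held 1 match, the motif of PU.1, a factor of the macrophage lineage, which began 43 bases before the start. In the windows of 300 bases (250 before to 50 after the start), that motif was in 2 of 48 Rab genes listed in RefSeq's table, Rab32 and Rab2b, and in 3.69% of all 27025 genes. The Rab11a promoter held the ETS motif at 46 and 13 bases before the start, and the motif was also in 1 other member, Rab24, and in 4.31% of all genes. Rab39 and Rab3d held GC boxes, 5 and 2 of them in the stretches shown, and Rab11a also held them, at 243 and 64 bases before the start. The GC box was in 36 of 48 Rab genes (75%), beside 38.2% of all genes, and Rab promoters had a median of 61.2% G and C and 19.5 CG pairs per window, beside 52.7% and 7 over all promoters. A match describes the letters and is no measure of binding.

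Late endosome and lysosome genes lay mostly on the microglia side. Of 8 members 7 passed the filter, and 5 of these were called in the microglia class and none in endothelial cells, with a median log2 ratio of 1.30 (1.34 with Rab39 at its floor). Beside these calls stand the 35.2% and 22.5% of all genes. Summed, the 8 were at 614 CPM in the microglia class, against 516 for endothelial cells, and the most abundant of them, Rab7, was the higher in endothelial cells. The plates overlapped in this sum, with 720 and 556 CPM on microglia-class plates A and B and 314, 482, 561 and 497 on endothelial plates A to D. Against cluster 3 of the microglia class alone, the microglia-like cells, Rab7b, Rab24 and Rab39b were not called, and Rab9 was 2.82-fold (2.28 to 3.53) and Rab7 1.86-fold (1.78 to 1.95) higher in endothelial cells. Rab7b, a late endosome Rab that acts in traffic from endosomes to the trans-Golgi, was at 127 and 90.0 CPM on microglia-class plates A and B, and at 1.04, 0, 0 and 0.228 on endothelial plates A to D. Each plate of the microglia class stood far above each endothelial plate. Pooled it was at 103 CPM (100.3 to 106) against 0.140 (0.029 to 0.410), which rests on 3 reads, a ratio of 735-fold (251 to 3565). It had reads in 21.4% (16.8 to 26.7) of microglia-class cells and 2.70% (0.561 to 7.70) of endothelial cells, or 19.4% and 0.901% after thinning. Few cells carried most of its signal: 7 cells held 50% of the reads in the class.

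Rab39, a Rab of phagosome and autophagosome maturation, was at 110.4 and 44.1 CPM on microglia-class plates A and B and at 0 on all 4 endothelial plates. Pooled it was at 67.5 CPM (65.2 to 69.9), at least 481-fold above the endothelial floor. It was read in 45 microglia-class cells, 16.1% (12.0 to 20.9), and in 0 of 111 endothelial cells, which allows, at a limit of 3 counts, a share of cells with a read of up to 2.70% and does not limit the share of cells that express it. Where it was read it was high, with a median of 325 CPM over those cells.

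Rab7, the GTPase that drives late endosomes to fuse with lysosomes, was at 301 and 284 CPM on microglia-class plates and at 303, 391, 472 and 437 on endothelial plates. It was thus higher on every endothelial plate, narrowly so on plate A, and pooled 1.52-fold higher (1.48 to 1.56). Rab24, linked to autophagy, was at 56.5 against 22.3 CPM, a ratio of 2.53-fold (2.30 to 2.80). On plate B its levels were 50.7 and 50.9 CPM, so its difference was not seen there, and the call also ended without plate D. In the annotation at hand 62.4% of its exon bases also belong to Prelid1 on the opposite strand, which had 7105 and 5051 reads, and the part of such reads in the Rab24 value was not tested. Rab34, which positions lysosomes and acts early in cilium formation, was at 50.3 against 23.7 CPM, a call that ended with other scaling factors and without plate A or D. Rab9, which returns cargo from late endosomes to the Golgi, was at 42.0 against 27.7 CPM, and Rab9b had no read. Rab39b was at 4.25 against 0.0468 CPM, with 98.5% of its reads in 1 cell, and its log2 ratio was -0.07 without plate B.

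The Rab32 family of lysosome-related organelles, which also serves lysosomes of macrophages, differed between its members. Rab32, the family's founding member, was at 104 and 137 CPM on microglia-class plates A and B and at 2.08, 0.471, 0.421 and 15.6 on endothelial plates. The plates of the classes stood apart, and pooled the levels were 126 CPM (122 to 129) and 6.74 (5.69 to 7.94), a ratio of 18.6-fold (15.8 to 22.1). It was read in 40.4% (34.6 to 46.4) of microglia-class cells and 9.01% (4.41 to 15.9) of endothelial cells, or 32.6% and 3.60% after thinning. A single endothelial cell held 61.1% of the endothelial reads. Rab38, its close paralog, was at 7.89 CPM against 0, at least 56.2-fold, but was read in 5 cells and 66.9% of its reads came from 1 of them. Rab29, a partner of the kinase Lrrk2, was at 70.1 against 86.5 CPM and not called. It was read in 22 endothelial cells, and 1 of them held 37.3% of its endothelial reads. On a level per kilobase of exon, Rab32 ranked 7 of the members in the microglia class, but 36 in endothelial cells.

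Early endosome genes went both ways: of 7 members 1 was called in each class, beside 35.2% and 22.5% of all genes, and the median log2 ratio was -0.09. The Rab5 proteins, which fuse early endosomes, were at 80.0 against 117 CPM (Rab5a), 32.8 against 34.9 (Rab5b) and 129 against 262 (Rab5c). Rab5c, called in endothelial cells at 2.03-fold (1.96 to 2.11), was at 57.7 and 167 CPM on microglia-class plates and at 0, 283, 243 and 305 on endothelial plates. The 7 endothelial cells of plate A thus had no Rab5c read, the log2 ratio was 5.87 on that plate alone, and the call also ended without plate A or plate D. Rab20, a Rab of phagosome maturation, was called in the microglia class, with 46.5 and 55.3 CPM on its plates against 1.04, 0, 9.90 and 40.3 on endothelial plates. Its plates did not overlap, but 1 endothelial cell held 51.4% of the endothelial reads, and the call ended without plate B or plate C. Rab21, which moves integrins, was at 18.8 against 28.8 CPM, Rab22a, an early endosome sorting Rab, at 48.0 against 32.8, and its paralog Rab31 at 196 against 100.04. Rab31 was at 1.89 CPM on endothelial plate B and 259 on plate A, and so overlapped the microglia-class plates at 288 and 147.

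Among recycling genes the main member was higher in endothelial cells. Rab11a, the GTPase of the slow recycling endosome, was at 229.9 and 161 CPM on microglia-class plates A and B and at 624, 313, 468 and 584 on endothelial plates A to D. Every endothelial plate stood above both microglia-class plates. Pooled the levels were 186 CPM (182 to 189) and 507 (498 to 517), 2.74-fold higher in endothelial cells (2.66 to 2.81), and the log2 ratio within plate B alone was -0.95, just short of 2-fold. It was read in 91.0% (84.1 to 95.6) of endothelial cells and 59.6% (53.6 to 65.4) of microglia-class cells, or 86.5% and 57.3% after thinning. Rab11a was thus the member read in the most endothelial cells, and 17 endothelial cells held 50% of its reads. Its paralog Rab11b was at 72.7 against 105 CPM, and Rab25, the epithelial member, had no read.

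Rab12, linked to degradation of the transferrin receptor, was at 31.5 and 8.13 CPM on microglia-class plates and 67.6, 132, 36.4 and 25.4 on endothelial plates, 2.61-fold higher pooled (2.37 to 2.87). The plates overlapped and the call ended without plate B. Rab35, a Rab of fast recycling and cytokinesis, was called in the microglia class at 67.4 against 33.1 CPM, with 35.4 and 84.8 on its plates against 0, 20.7, 38.6 and 33.6, and the call ended with other scaling factors and without plate B. Rab14, which links the Golgi with endosomes and is found on phagosomes, was the most read member of the microglia class, at 424 against 301 CPM, and read in 82.1% of its cells against 69.4%. Its plates stood apart (523 and 370.3 against 255 to 332) at a ratio of 1.41-fold (1.37 to 1.45), under the threshold. Rab4a and Rab4b, the fast recycling pair, were low, at 8.21 against 5.10 and 10.04 against 7.58 CPM.

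Exocytosis genes gave no call on the microglia side and 3 on the endothelial side, of 7 that passed the filter, beside 35.2% and 22.5% of all genes, with a median log2 ratio of 0.03. Rab13, which delivers proteins to tight junctions, was at 11.9 and 0.293 CPM on microglia-class plates A and B and at 70.7, 269, 149 and 54.3 on endothelial plates A to D. Each endothelial plate lay above both microglia-class plates, and the endothelial plates themselves spanned a wide range. Pooled the levels were 4.40 CPM (3.82 to 5.04) and 119 (114 to 123), 27.0-fold higher in endothelial cells (23.4 to 31.2). It was read in 28.8% (20.6 to 38.2) of endothelial cells and 7.86% (4.99 to 11.7) of microglia-class cells, or 22.5% and 4.85% after thinning. In the microglia class 1 cell held 53.1% of its reads. Per kilobase it ranked 8 of the members in endothelial cells, but 42 in the microglia class.

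Rab3d, a Rab of regulated secretion, was at 40.8 and 47.2 CPM on microglia-class plates and at 239, 354, 130.4 and 163 on endothelial plates. The classes did not overlap, and pooled the levels were 45.0 CPM (43.1 to 46.9) and 171 (165 to 177), 3.80-fold higher in endothelial cells (3.60 to 4.01). It was read in 28.8% (20.6 to 38.2) of endothelial cells and 11.8% (8.25 to 16.2) of microglia-class cells, or 27.0% and 8.37% after thinning. Rab3b was called in endothelial cells at 8.47 against 0.021 CPM, but was read in 4 of them and 70.7% of the reads lay in 1, and on plates A and B the endothelial cells had none. Rab3a was at 30.3 against 28.1 CPM, and Rab3c had 3 reads in all, each in a microglia-class cell. Rab8a and Rab8b, which carry cargo from the Golgi to the surface and to cilia, were at 122 against 119 and 96.7 against 51.4 CPM, and Rab10, of the same branch, at 169 against 143. Rab27a, a Rab of granule release, was near 0 in both classes at 0.926 against 0.375 CPM, and Rab27b had no read.

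Of 10 endoplasmic reticulum and Golgi genes that passed the filter, 7 lay between the thresholds, beside 52.2% of all 46 members. The calls were 2 on the microglia side and 1 on the endothelial side, beside 35.2% and 22.5% of all genes. The median log2 ratio of the 10 was -0.25. Rab1a and Rab1b, which act between the endoplasmic reticulum and the Golgi, were at 268 against 296 and 186 against 347 CPM. Rab1b was at 118 and 224 CPM on microglia-class plates and at 435, 248, 337 and 371 on endothelial plates, and so did not overlap at 1.86-fold (1.80 to 1.92). Rab6a, the Golgi Rab of retrograde traffic, was called in endothelial cells at 164 against 67.9 CPM (2.42-fold, 2.31 to 2.54). On plate A its levels were 41.6 and 47.5 CPM, with a log2 ratio of 0.19. Rab2a, another Golgi Rab, was at 123 against 187 CPM, Rab2b at 11.4 against 21.3, Rab6b at 38.2 against 32.5, Rab18, found on lipid droplets, at 143 against 184, and Rab33b, a Golgi Rab linked to autophagy, at 40.5 against 22.2. Rab43, also of the Golgi, was at 25.0 against 5.90 CPM (4.24-fold, 3.53 to 5.14), with plates at 21.4 and 27.0 against 0, 2.36, 9.16 and 3.87. Rab19 was at 16.6 CPM against 0, at least 118-fold, from 9 cells, of which 1 held 42.8% of the reads.

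The remaining genes, of the cilium or less studied, were at 74.5 CPM or less. Rab28, a ciliary Rab, was at 51.4 CPM in endothelial cells against 24.6, with plates at 83.1, 73.1, 54.9 and 38.9 against 19.9 and 27.2. Its call ended without plate A or without plate C. Rab23, an inhibitor of hedgehog signalling, was at 10.1 against 2.90 CPM, but 1 cell held 57.7% of the endothelial and 1 cell 87.7% of the microglia-class reads, and the log2 ratio was 0.79 without plate C. Rab40c, which joins a ubiquitin ligase, was at 74.5 against 49.4 CPM, and Rab40b (2.76 against 0.0468) and Rab42 (7.01 against 2.06) were called in the microglia class with 93.1% and 82.0% of the reads in 1 cell. Without the top cell of each gene the calls of Rab39b, Rab40b and Rab42 ended, and without plate B the log2 ratio of Rab42 was -1.63. The 13 members under the filter were at most at 1.07 CPM in the microglia class, and at most at 0.515 for endothelial cells. They were Rab3c, Rab9b, Rab15, Rab17, Rab25, Rab26, Rab27a, Rab27b, Rab30, Rab33a, Rab36, Rab37 and Rab44, and Rab9b, Rab17, Rab25, Rab27b and Rab33a had 0 reads in all cells.

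**Figure D2:**
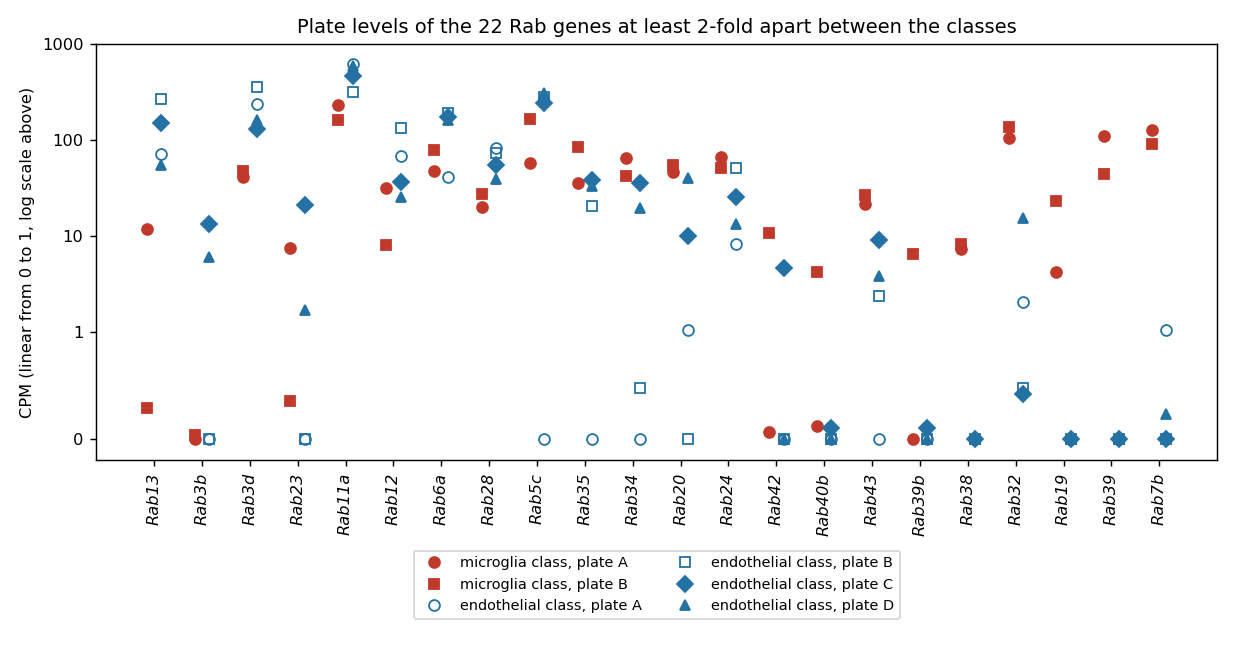
CPM on each plate (linear from 0 to 1, log scale above) for the 22 called Rab genes, red for the microglia class on plates A and B and blue for endothelial cells on plates A to D. Rab13, Rab3d and Rab11a on the endothelial side and Rab32, Rab39 and Rab7b on the microglia side have plates apart, while Rab5c, Rab6a, Rab24 and Rab35 overlap.

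Levels were ordered per kilobase of exon, the scale on which genes can be compared. In the microglia class Rab7 led at 111 CPM per kilobase, then Rab1b at 82.0, Rab1a at 70.7, Rab11a at 62.0, Rab5c at 58.6 and Rab2a at 57.7, followed by Rab32 at 53.7. In endothelial cells Rab11a (169.6 CPM per kilobase) and Rab7 (169.3) led, then Rab1b at 153, Rab5c at 119, Rab2a at 87.7, Rab1a at 77.8 and Rab29 at 58.9, followed by Rab13 at 51.6. The first 6 of the order were the same 6 genes in both classes, and the classes differed below them, where Rab32 stood in one and Rab13 in the other. Rab11a and Rab7 in endothelial cells could not be ordered, since their plate levels overlapped. In the microglia class Rab7 led on both plates, and the plate levels of neighbours from Rab1b to Rab32 overlapped. The exon lengths are those of an annotation of an older build than the counts, and a cell may use only some of the exons counted in a length.

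Paralog choice was compared as the share of each member in its family per kilobase. Of 19 families 16 stood at 10 CPM or more in both classes, and 3 had a different leading member in the 2 classes. In the Rab10 and Rab13 pair, Rab10 made up 96.2% (95.6 to 96.7) in the microglia class, and Rab13 55.9% (54.6 to 57.2) in endothelial cells. In the Rab32 family Rab32 led the microglia class with 50.4% (49.4 to 51.5), beside 44.9% for Rab29 and 4.70% for Rab38. Rab29 made up 95.3% (94.5 to 96.1) in endothelial cells, where 2 cells held 50% of its reads. In the Rab3 family Rab3a led the microglia class with 56.0% (54.3 to 57.6), and Rab3d made up 73.0% (71.5 to 74.6) in endothelial cells. The shares of the first 2 families moved far between classes, and that of the Rab3 family less. Per kilobase of coding sequence only the Rab32 family had different leaders: Rab10 then led in endothelial cells too, with 54.9%, and Rab3d in the microglia class too, with 59.8%.

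Plates bore unevenly on these shares. Rab10 was 88.0% and 99.8% of its pair on microglia-class plates A and B, and 73.6%, 39.5%, 38.0% and 54.3% on endothelial plates A to D, so Rab13 led on endothelial plates B and C only. Rab3d was 56.6% and 39.8% of its family on microglia-class plates and 71.3%, 100%, 73.0% and 64.2% on endothelial plates, so it also led on microglia-class plate A. Rab29 was 56.1% and 38.2% of its family on microglia-class plates A and B, and 99.6%, 99.6% and 92.0% on endothelial plates B, C and D, while the 7 endothelial cells of plate A had no read of it. Rab29 thus led the family on microglia-class plate A too, and Rab32 on plate B. The direction between classes was thus shared by the plates for the first 2 of these families, and by all but endothelial plate A for the Rab32 family. In cluster 1 of the microglia class the leaders of the Rab32 and Rab3 families were those of endothelial cells. Rab29 was there at 117 CPM over 1468 exon bases, against 137 over 2339 for Rab32. Rab3d was at 69.0 CPM over 4196 exon bases, against 33.2 over 2226 for Rab3a.

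In the other 13 families the same member led in both classes when all cells of a class were pooled, with smaller shifts. Rab7b was 16.7% (16.3 to 17.2) of the Rab7 pair in the microglia class, beside 0.02% for endothelial cells, where nearly all reads of the pair were Rab7's. Rab11a exceeded Rab11b in both classes, at 83.9% and 90.8%, and Rab8a was 56.0% of its pair in the microglia class, beside 70.1% for endothelial cells. Rab5c was 71.8% and 79.6% of the Rab5 family, Rab6a 70.6% and 87.2% of the Rab6 pair, Rab2a 95.5% and 94.5% of the Rab2 pair and Rab31 88.5% and 85.2% of its pair with Rab22a. Rab1b was 53.7% and 66.2% of the Rab1 pair. Its lead in the microglia class was not shared by plate A, where Rab1a was at 280 CPM over 3799 exon bases, against 118 over 2272 for Rab1b. Rab1a also led per kilobase in cluster 1 (368 against 161 CPM) and cluster 3 (275 against 114). Rab4b was 52.2% and 57.0% of the Rab4 pair, Rab40c 94.6% and 99.9% beside Rab40b, and Rab34 99.6% and 99.2% beside Rab36. Rab9 and Rab33b were the only members of their pairs with reads.

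**Figure D3:**
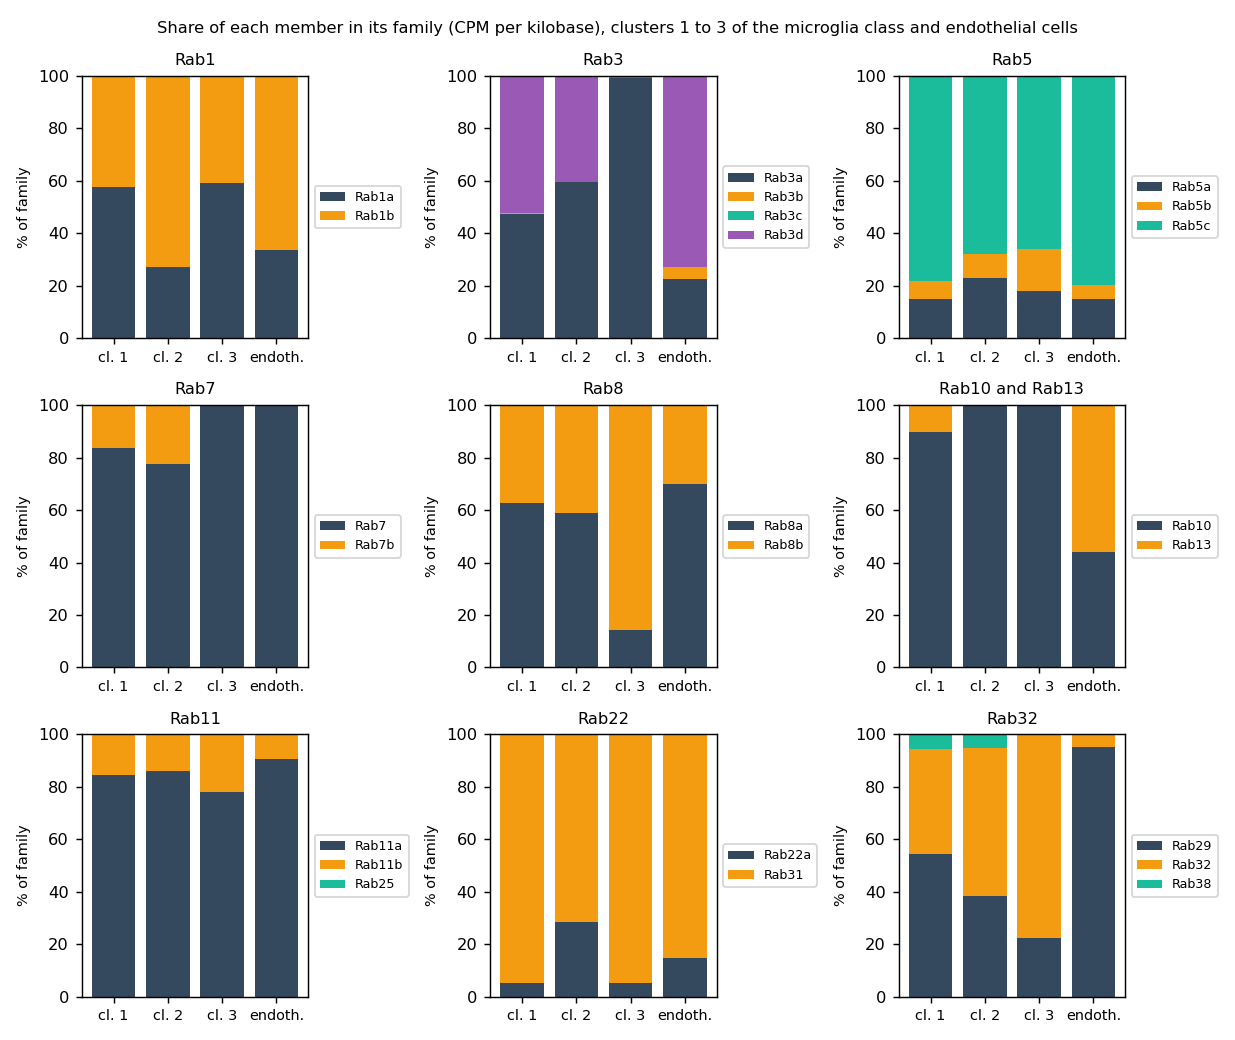
Share of each member in its family (percent of CPM per kilobase of exon) for 9 families, in clusters 1, 2 and 3 of the microglia class and in the endothelial class. Rab13 is 55.9% of its pair in endothelial cells and at most 10.4% in the clusters; Rab8b is 85.9% of the Rab8 pair in cluster 3 and 29.9% in endothelial cells.

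Inside the microglia class several Rab genes followed the clusters. The clusters were made from the same cells without Rab genes, so these values describe the cells and carry no test. Rab7b was at 104 CPM (99.1 to 108) in cluster 1, 160 (154 to 165) in cluster 2 and 0.992 (0.476 to 1.82) in cluster 3, the microglia-like cells. By plate it was 90.9 and 112 CPM in cluster 1, 264 and 114 in cluster 2 and 0.531 and 1.27 in cluster 3. Its call in the microglia class therefore rested on clusters 1 and 2 and ended for cluster 3 alone. Rab3d was likewise at 69.0, 44.3 and 0.298 CPM, with 3 reads in cluster 3, so Rab3a was 99.0% of the Rab3 family there.

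Rab8a was at 134 and 168 CPM in clusters 1 and 2 and 14.3 in cluster 3, and Rab8b was at 81.1, 118 and 87.9, so Rab8b made up 85.9% of the pair in cluster 3. On plates A and B Rab8a was at 36.1 and 1.27 CPM in cluster 3, and at 132 to 238 in clusters 1 and 2. It was read in 27.2%, 45.7% and 30% of the cells of clusters 1, 2 and 3, so cluster 3 was not below cluster 1 in the share of cells with a read. Rab9 (49.7, 51.7 and 9.82 CPM) and Rab21 (25.0, 20.6 and 3.57) were also lowest in cluster 3. For Rab21, however, 1 cell of cluster 1 held 45.2% of the reads in the class. The share of cells with a Rab21 read was 13.2%, 19.1% and 14.0% in clusters 1, 2 and 3. Rab39 went the other way, at 53.2 CPM in cluster 1, 43.9 in cluster 2 and 137 (130 to 145) in cluster 3. It was read in 13 of 50 cluster 3 cells, 26.0% (14.6 to 40.3), all with at least 10 reads, and at 248 and 71.8 CPM on plates A and B. Rab35 was at 54.4, 47.9 and 127 CPM, from 45.2 on plate A and 176 on plate B in cluster 3, and Rab10 at 135, 160 and 249.

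Rab32 was near level over the clusters at 137, 106 and 139 CPM, as were Rab14 at 451, 420 and 380.5 and Rab7 at 299.7, 309 and 237. Rab13 was at 0.694 CPM in cluster 3. Against all endothelial cells, cluster 3 alone gave 10 members at least 2-fold higher and 15 lower, beside 30.5% and 34.1% of all genes. Of these, Rab32 was 20.6-fold higher in cluster 3 (17.3 to 24.6), Rab35 3.85-fold (3.51 to 4.23), Rab31 2.61-fold (2.47 to 2.77) and Rab20 2.60-fold (2.29 to 2.95). The Rab20 ratio rested on plate A, where cluster 3 was at 146 CPM, against 0.316 on plate B. For Rab31 cluster 3 was at 435 and 158 CPM on plates A and B, and endothelial plate A, at 259, lay above the latter. Rab11a was 3.25-fold (3.08 to 3.43), Rab8a 8.35-fold (7.05 to 9.94), Rab29 3.46-fold (3.03 to 3.96) and Rab1b 3.03-fold (2.85 to 3.23) higher in endothelial cells than in cluster 3. Rab32, Rab39, Rab13, Rab3d and Rab11a were thus still called with the microglia-like cells alone. Rab7b was not called there, although its 0.992 against 0.140 CPM, from 10 and 3 reads, was a ratio of 7.06-fold (1.82 to 39.9).

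Other Rab genes separated clusters 1 and 2. Rab1a was at 368 CPM in cluster 1, 159 in cluster 2 and 275 in cluster 3, and Rab31 at 245, 109 and 261. Rab34 (85.2, 13.5 and 50.1 CPM), Rab29 (117, 45.1 and 25.0) and Rab40c (143, 24.7 and 32.3) were highest in cluster 1, and Rab22a (26.4, 82.7 and 26.9) and Rab12 (13.1, 20.5 and 15.3) in cluster 2. The Rab40c value rests on plate B, with 211 CPM in cluster 1 there and 37.0 on plate A. The Rab genes together stood at 3967, 3568 and 3243 CPM in clusters 1, 2 and 3.

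**Figure D4:**
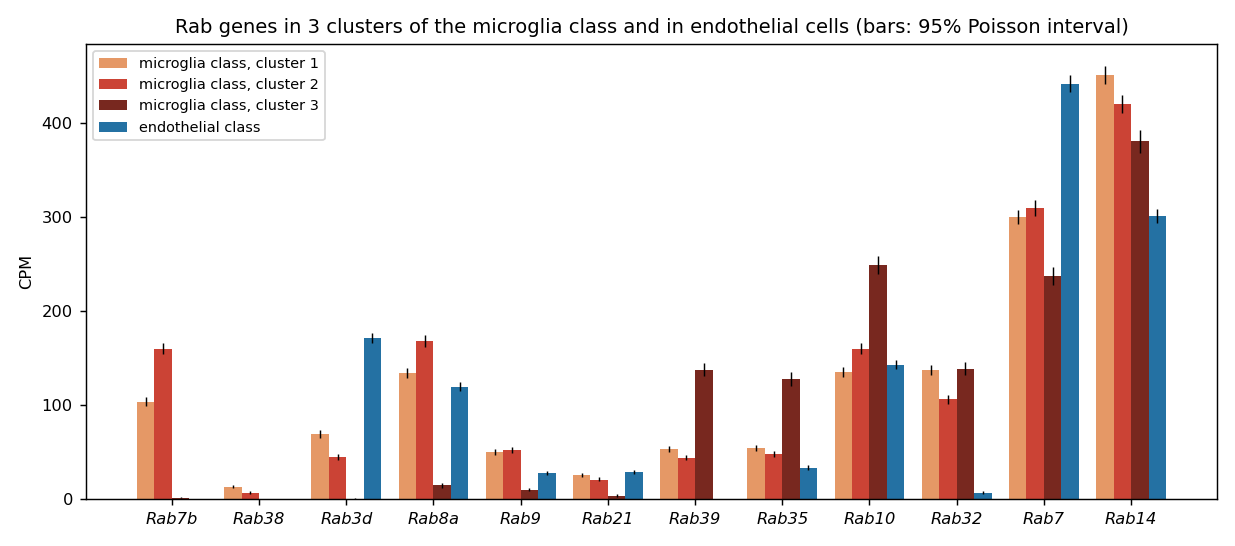
CPM of 12 Rab genes in clusters 1 to 3 of the microglia class and also in endothelial cells, with 95% Poisson intervals of the summed reads. Rab7b, Rab3d, Rab8a, Rab9 and Rab21 are lowest in cluster 3, Rab39, Rab35 and Rab10 highest there, and Rab32 stands between 106 and 139 CPM in all 3 clusters. For Rab21, 1 cell of cluster 1 holds 45.2% of the reads of the microglia class.

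The genes that load, switch, carry and read Rab proteins were examined as 8 lists of 139 genes, of which 127 passed the filter. On the microglia side 42 were called, and on the endothelial side 24, with a median log2 ratio of 0.32, beside 0.27 for all genes. For scale, 35.2% and 22.5% of all genes were called in these directions. Among 7 genes of prenylation and recycling of Rab proteins, 3 were called on the microglia side and 1 on the endothelial side. Gdi2, a dissociation inhibitor, was at 930.2 and 801 CPM on microglia-class plates and at 716, 199, 246 and 267 on endothelial plates, with no overlap, and pooled 3.12-fold higher in the microglia class (3.04 to 3.21). Rabggta, a prenyltransferase subunit, was at 115 against 39.3 CPM, and Chml, a Rab escort protein, at 12.5 against 0.375. Rabif, a chaperone of nucleotide-free Rabs, was at 26.5 against 76.1 CPM.

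Of 36 exchange factors 15 were called on the microglia side and 7 on the endothelial side, with a median log2 ratio of 0.73. Dennd1c, an exchange factor of Rab35, was at 143 and 125 CPM on microglia-class plates and at 0, 0, 0.211 and 0 on endothelial plates. Rab3il1, for Rab8, was at 685 against 129 CPM, and Rin2, for Rab5, at 404 against 128, both with plates apart. Dennd3, an exchange factor of Rab12, was at 1.79 against 120 CPM, 67.2-fold higher in endothelial cells (54.2 to 84.4), with endothelial plates at 209.95, 122, 109.8 and 121. Als2cl, for Rab5, at 17.0 against 337 CPM, and Rgp1, part of the exchange factor of Rab6, at 17.5 against 307, were also higher there, and Rgp1 was at 3.12 CPM on endothelial plate A. Gapvd1 was at 164 against 96.9 CPM and Rin3 at 110.3 against 183, between the thresholds.

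GTPase-activating proteins were split, with 7 of 32 called in the microglia class, 8 in endothelial cells and a median log2 ratio of -0.05. Tbc1d4, which acts on Rab10, was at 84.8 against 1.69 CPM, 50.3-fold higher in the microglia class (36.3 to 71.9), with 174 CPM in cluster 1 and 14.2 in cluster 3. Tbc1d20, which acts on Rab1 and Rab18, was at 87.1 against 282 CPM, although it was at 0.471 on endothelial plate B. Tbc1d2b was at 38.1 against 138 CPM, Tbc1d17 at 178 against 69.2, and Sgsm1 at 0 against 7.30. Tbc1d14 (127 against 72.4 CPM), Tbc1d22a (118 against 161) and Tbc1d9b (160.06 against 118) lay between the thresholds.

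Effectors of the early endosome gave 4 calls on the microglia side and 3 on the endothelial side of 12. Appl2, an adaptor of Rab5, was at 95.3 against 20.9 CPM, and Rbsn, a Rab5 effector, at 32.3 against 72.3 and its partner Vps45 at 10.4 against 25.7. Ankfy1 (109 against 68.0), Rabep1 (121 against 87.7) and Rabep2 (86.0 against 72.4) were not called. Of 14 late endosome effectors, 4 were called in the microglia class and none in endothelial cells. Plekhm2, a lysosome adaptor of kinesin, was at 45.6 against 1.31 CPM, and Vps41, a subunit of the tether that Rab7 uses, at 123 against 55.7. The retromer subunits Vps35 (180.03 against 152) and Vps26a (104 against 71.9), the tether subunit Vps11 (77.3 against 87.7) and Rilp, the dynein adaptor of Rab7 (10.2 against 12.9), lay between.

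Recycling effectors gave 4 calls on the microglia side and 1 on the endothelial side of 13. Myo5a, the motor that Rab11, Rab27a and Rab32 family members recruit, was at 322 and 364 CPM on microglia-class plates and 0, 0.471, 32.3 and 7.40 on endothelial plates. It was at 490, 344 and 89.5 CPM in clusters 1, 2 and 3. Rab11fip5, an effector of Rab11, was at 131 against 36.0 CPM, but endothelial plate B, at 165, lay above both microglia-class plates (164 and 113). Zfyve27 was at 30.6 against 78.0 CPM, Ehd1 at 132 against 85.6 and Rufy1 at 43.3 against 67.6.

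Exocytosis effectors were few: 7 of 16 passed, 2 called on the microglia side and 3 on the endothelial side. Micall2, the partner of Rab13 at junctions, was at 0.0631 against 28.5 CPM, and Rph3al, a Rab3 and Rab27 effector of secretion, at 0.021 against 31.6. Both were at or under 0.0651 CPM on both microglia-class plates, and at 0 on endothelial plate A. Mlph, which links Rab27a with Myo5a, was at 44.1 against 7.72 CPM and at 179.5 in cluster 3 against 14.3 in cluster 1, and Unc13d at 13.2 against 0.0936. Ocrl (21.4 against 11.9) and Optn (30.2 against 47.3) lay between. Among the kinases, phosphatases and adaptors of phosphorylated Rab proteins, Lrrk1 was at 90.0 against 11.8 CPM and Lrrk2 at 12.9 against 37.7. Over endothelial plates Lrrk1 ranged from 0 to 19.0 CPM and Lrrk2 from 0 to 115. Ppm1m, a phosphatase of Rab proteins, was at 121 against 24.8 CPM, and the adaptors Rilpl1 (69.0 against 85.4) and Rilpl2 (98.5 against 58.9) were not called.

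**Figure D5:**
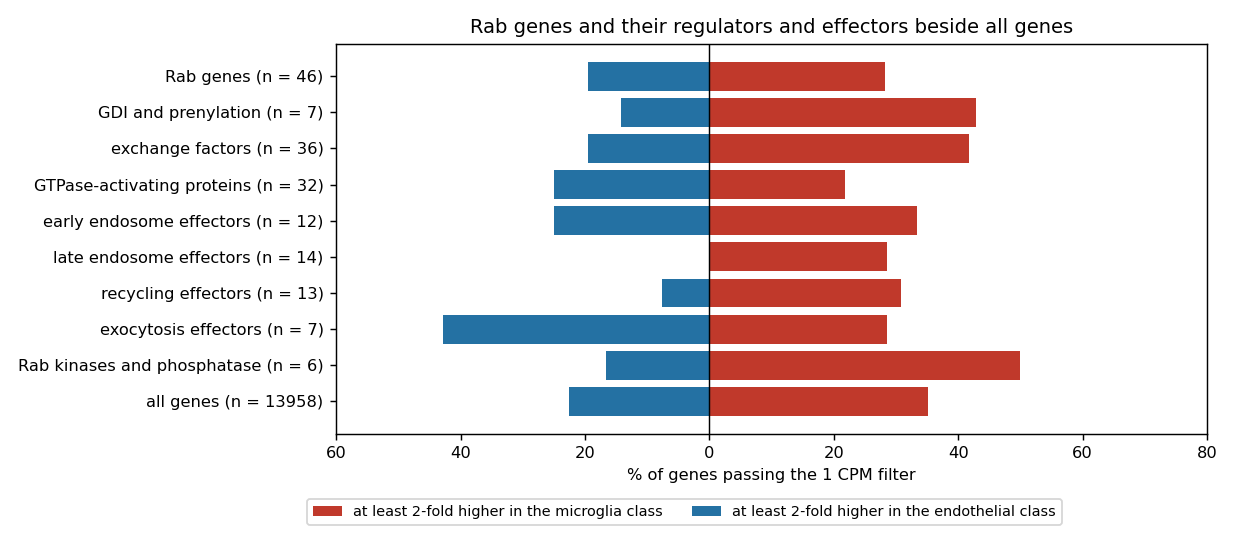
Percent of genes called at 2-fold on the microglia side (red, to the right) or the endothelial side (blue, to the left), for the Rab genes, the 8 lists of regulators and effectors, and all genes, each among the genes that passed the 1 CPM filter, with their number in parentheses. The Rab genes stand at 28.3% and 19.6%, beside 35.2% and 22.5% of all genes; the exchange factors extend furthest to the right among the lists of over 10 genes.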

How the data were processed

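Single cells of 2 labelled classes, 280 microglia and 111 endothelial cells, were compared. The authors deposited raw counts, whole-number reads per gene and cell, for 56941 genes, and a cell table with a class code (another kind of value, not a measurement) per cell. Build GRCm39 was used with featureCounts, Subread 1.4.6-p5 and SAMtools 1.16.1, per the submitters' processing notes. The aligner, the annotation and the settings for strand and multiply mapped reads, not given in the sources used here, leave near-identical copies and overlapping genes uncertain. No count column was left out (0 unused, 0 identical), and all cells were kept. Doublets were not called, each well being deposited as 1 cell. Reads of the opposite class's markers exceeded 10% of a cell's own in 3 microglia-class and 4 endothelial cells.

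The members, the lists of roles, families, machinery and markers, and the alternatives were chosen with earlier results of these data known. Reads were summed per class, divided by all gene reads (CPM) and compared as log2 of CPM plus 1, which understates ratios of low genes, among genes with a mean of at least 1 CPM. Levels have exact Poisson intervals, ratios exact conditional binomial intervals and shares Clopper-Pearson intervals, all at 95%. For a class at 0, 3 reads served as the floor. Depth per cell ran from 39876 to 504875 reads in the microglia class and 83954 to 602175 in endothelial cells, and shares of cells were repeated at 80000 reads. Exon lengths came from GENCODE M21 (59 members matched), an older build, and were used only for levels per kilobase and overlaps. Clusters of the microglia class used 2000 variable genes without Rab genes, 20 components, 15 neighbours and resolution 0.5. They were named where fixed markers led and were read in at least 50% of cells. Promoters came from RefSeq (48 members matched).

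Named were the Rab genes at 10 CPM or more in either class, members of families at that level, and from each machinery list the 3 most abundant genes per class with the most extreme ratio in each direction. On simulated reads for this comparison (200 genes changed), 96.5% of the changed genes had the true ratio inside their interval, 98.5% of those changed 4-fold (67) and 100% of those changed 8-fold (66) were called, and 0 of 13957 unchanged genes were. Simulated reads had no variation between cells. Alternatives covered pseudocounts, filters, scaling factors of edgeR (TMM) and DESeq2, per-cell means, top cells, plates, clusters, lengths and thinning. Software: R 4.3.3 with edgeR 4.0.16 and DESeq2 1.42.0; matplotlib 3.10.9, leidenalg 0.10.2, scanpy 1.11.5, pandas 2.3.3, scipy 1.17.1, numpy 2.4.6 and Python 3.11.15. For 1 gene of the regulator lists no values are reported here.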

Additional observations from a re-analysis of the deposited data

How the results depend on the processing

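The 13 calls in the microglia class became 8 with a pseudocount of 5 CPM, 8 with a filter at 10 CPM, 24 within plate A, 22 within plate B and 6 at 4-fold. The share of all genes called there, 35.2%, became 24.7%, 27.2%, 60.7%, 61% and 21.4% in the same order. The 9 calls in endothelial cells became 15 for cluster 3 alone and 2 at 4-fold, where the share of all genes went from 22.5% to 34.1% and 12.6%. The median log2 ratio of 0.23 became 0.10 with no filter, 0.029 with a filter at 10 CPM, 0.15 with TMM and 0.10 with DESeq2 factors (which took the median of all genes from 0.27 to 0.15), and 0.34 with per-cell means. It was 2.76 within plate A, 0.76 within plate B, 0.043 without plate B, 0.35 without plate C, 0.40 without plate D, -0.15 for cluster 2 and -0.22 for cluster 3. Families with different leaders numbered 1 by coding length, 2 with no length and 6 for cluster 3. The 66 machinery calls became 103 within plate A, 104 within plate B and 39 at 4-fold. All genes moved in the same directions. On the microglia and endothelial sides 60.7% and 20.8% of them were called within plate A, and 61% and 20.1% within plate B. At 4-fold these shares were 21.4% and 12.6%. Rab13, Rab3d, Rab19, Rab32 and Rab39 kept their call in all 16 settings that give a ratio per gene. With 0 endothelial reads, the sign could not turn for Rab19 and Rab39. Rab19 was read in only 9 microglia-class cells, and in 1 of 50 in cluster 3. Rab7b, Rab38 and Rab43 lost theirs for cluster 3 alone, Rab11a within plate B and Rab12 without plate B. Of the called members, signs turned for Rab23 (3.10 within plate A, 0.44 within plate B, 0.79 without plate C), Rab39b (-0.073 without plate B, -0.066 for cluster 3), Rab42 (-1.63 without plate B, -1.54 for cluster 2) and Rab3b (0.046 within plate B). They also turned for Rab6a (0.19) and Rab5c (5.87) within plate A, Rab34 (-0.77 for cluster 2) and Rab24 (-0.0072 within plate B). The causes were not tested. Without the cells rich in opposite markers, a setting chosen after seeing the data, the counts were 13 and 9. No paired analysis was possible because replicate numbers follow accession order only and no test was made. Plates A and B, which hold both classes, were compared within the plate as given above.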

Other observations

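Some Rab genes share sequence or positions with other genes of the table. In the annotation at hand 20 members overlap another gene. Rab10 shares 4.07% of its exon bases with the antisense gene Rab10os, itself read 3370 times in the microglia class against 962 times in endothelial cells, and Rab6a shares 19.0% with Mrpl48 on the opposite strand (1674 and 734 reads). Rab20 shares 25.6% with E230013L22Rik on the opposite strand, which had 919 and 17 reads, in the same direction as Rab20 itself. Rab43 shares 75.4% with Gm45140 on its own strand, which had 1 and 0 reads. Of 4 annotated Rab pseudogenes, Rab11b-ps2 had 50 and 33 reads, Rab7-ps1 17 and 6, Rab5a-ps 1 and 0, and Rab9b-ps1 none. How far reads were split or lost between these genes was not tested.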
